A study of Mus musculus with 12 samples.

Results

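Anergic CD4 T cells were compared with Naive CD4 T cells in 6 of the 12 libraries of the study, 3 of each subset, over all genes counted. The 3 Anergic and the 3 Naive libraries were taken by the subset that their labels give. All libraries were made from total RNA of mouse CD4 T cells sorted from mixed spleen and lymph node of wildtype C57BL/6 mice. The mice carried the Foxp3-GFP reporter, had a polyclonal T cell repertoire and received no treatment, and no age is given. Naive cells were CD44low. Anergic cells were CD44high and FOXP3–, with high CD73, high FR4 and surface NRP1. The 2 further subsets, used here only for levels beside the main comparison, were Teff (CD44high, FOXP3–, CD73low and FR4low) and Treg (FOXP3+ and CD25+). The subsets are thus defined by surface and reporter gates in unmanipulated animals, and the CD44 gate alone separates antigen-experienced from Naive cells. Whether libraries of a subset stem from separate animals is not in the labels, so each p-value covers the spread between these libraries only, which may be technical.

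Anergy is a state in which a T cell that has met its antigen survives but answers poorly to a second encounter. It is one of the ways by which self-reactive CD4 T cells are held in check outside the thymus, and cells in this state are recognised in mice by joint surface CD73 (an enzyme that makes adenosine) and FR4 (a folate receptor family member). Naive CD4 T cells are quiescent, recirculate through lymph nodes and depend on IL-7 and contacts with self-peptide for survival. The series title concerns BATF, a leucine zipper transcription factor that binds DNA with JUN and IRF partners, and BIM, a killer protein of the BH3-only class, the product of Bcl2l11.

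Start-site windows of 4 genes show where the letters of an AP-1 motif, the kind of site bound by BATF with a JUN partner, were and were not found among genes of this comparison. Batf and Bcl2l11 are the pair named by the study, and Ccr4, a chemokine receptor gene, and Anxa2, which encodes a membrane-binding annexin, are genes higher in Anergic cells whose window holds the motif. Sequences are RefSeq's on GRCm38.p6, from 250 bases before to 50 bases after the start, written along the gene's own strand. The windows lie at chr12:85686470-85686769 (plus strand) for Batf, chr2:128125788-128126087 (plus strand) for Bcl2l11, chr9:114496495-114496794 (minus strand) for Ccr4 and chr9:69453433-69453732 (plus strand) for Anxa2. Capitals mark a match to TGANTCA on either strand.
Batf: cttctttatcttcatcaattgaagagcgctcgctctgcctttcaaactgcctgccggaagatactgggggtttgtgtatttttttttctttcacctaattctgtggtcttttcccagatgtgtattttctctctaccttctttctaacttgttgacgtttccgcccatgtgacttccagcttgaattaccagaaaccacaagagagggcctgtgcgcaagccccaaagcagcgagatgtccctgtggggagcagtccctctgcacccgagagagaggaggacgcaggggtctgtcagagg
Bcl2l11: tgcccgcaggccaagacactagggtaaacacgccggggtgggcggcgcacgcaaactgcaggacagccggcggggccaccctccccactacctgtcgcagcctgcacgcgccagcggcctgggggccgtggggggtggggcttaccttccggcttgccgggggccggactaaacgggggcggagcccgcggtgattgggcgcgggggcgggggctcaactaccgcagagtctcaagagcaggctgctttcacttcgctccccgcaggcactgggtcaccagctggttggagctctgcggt
Ccr4: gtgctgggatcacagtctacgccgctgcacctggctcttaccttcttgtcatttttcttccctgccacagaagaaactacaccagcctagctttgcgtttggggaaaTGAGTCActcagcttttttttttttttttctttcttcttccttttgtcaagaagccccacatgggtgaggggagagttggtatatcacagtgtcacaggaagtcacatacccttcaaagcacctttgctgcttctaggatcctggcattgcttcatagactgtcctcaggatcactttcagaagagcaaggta
Anxa2: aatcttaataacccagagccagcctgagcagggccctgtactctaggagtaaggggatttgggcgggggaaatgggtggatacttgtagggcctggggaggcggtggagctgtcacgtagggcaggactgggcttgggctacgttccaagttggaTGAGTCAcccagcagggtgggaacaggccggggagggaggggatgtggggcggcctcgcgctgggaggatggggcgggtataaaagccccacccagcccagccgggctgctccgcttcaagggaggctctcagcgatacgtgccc
The match in Ccr4 begins at position -143 from the start and that in Anxa2 at -95. The windows of Batf and Bcl2l11 held no TGANTCA, which says only that these letters are not there.

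Windows on chromosome 18, where for example Nfatc1 and Smad7 lie, were left out of the search. Of the 217 genes chosen for naming, 158 had a window among the remaining RefSeq ones, and 10 of these held TGANTCA. Over all 27025 windows the share with TGANTCA was 7.93%, and over the 8871 tested genes with a window it was 4.58%. The share was 7.43% of 1076 genes higher in Anergic cells by 2-fold or more, 3.99% of 451 genes lower by 2-fold or more, and 4.17% of 4458 genes that did not pass the test. The letters GGGTGNGG of a KLF motif were in 22.5% of windows of the strongly higher, 21.1% of the strongly lower and 19.3% of all tested genes. The NFAT core GGAAAA was in 21.5%, 18% and 20.7% of the same sets, and the TCF and LEF letters CTTTGAA were in 4.18%, 3.77% and 3.82%. None of the 4 motifs contains another. These shares describe letters in windows, both strands searched, and not sites of binding.

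The libraries held 6909035 to 8643772 counts, 6909035 to 8008010 in Naive and 8564325 to 8643772 in Anergic. Levels are given as TMM-scaled CPM, that is counts relative to library size (CPM) after edgeR's TMM scaling, with the 3 values in the order of the replicate numbers or as mean ± SD (n = 3). A set of 6 abundant entries, mt-Rnr1, mt-Rnr2, Gm23935, Gm26917, Gm42418 and Lars2, made up 29 to 32.5% of counts in Naive and 32 to 39.4% in Anergic libraries. Anergic replicate 3 held the highest share and had the lowest TMM factor, 0.871; without it 3096 genes were higher and 2583 lower. Mitochondrial ribosomal RNA took 10.1 to 10.6% in Naive and 13.9 to 16.2% in Anergic libraries, without overlap. Genes with a count numbered 18063 to 18687 in Naive and 19530 to 19862 in Anergic libraries. The parts of these differences in the gene results were not tested. Of the named genes 24 share more than 10% of their exon length with another gene, among them Foxp3, Ifng, Spp1, Penk, Cnn3, Lef1, Xist, Spry1 and Dusp5, and their counts are uncertain to that extent.

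The subsets differed widely. Of 54532 entries 13393 had enough counts to be tested, and 6193 of these (46.2%) differed at an adjusted p under 0.05. Every adjusted p is from the quasi-likelihood test of edgeR with Benjamini-Hochberg adjustment over these genes, and log2FC is the fitted log2 fold change with its SE. In Anergic cells 3342 genes (25.0%) were higher and 2851 (21.3%) lower, with a median log2 fold change of 0.01 over all tested genes. The larger differences leaned upward: 1574 genes (11.8%) were higher by 2-fold or more and 746 (5.57%) lower, and at 8-fold or more 620 were higher and 87 lower. Without overlap of the libraries, 28.3% of tested genes lay above and 25.0% below Naive. Of 10651 protein-coding genes 50.7% differed, of 259 long intergenic RNAs 39% and of 242 antisense RNAs 28.5%. These class shares take no account of the counts that each class holds. Because close to every second gene differed, a count of list members below is read against these shares and describes the list only. A gene passes the minimum-count filter also when it is expressed in one subset alone, so the tested members of a list are not its whole membership. In bulk RNA, fewer cells expressing a gene and less of its RNA in each cell cannot be told apart.

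**Figure D1:**
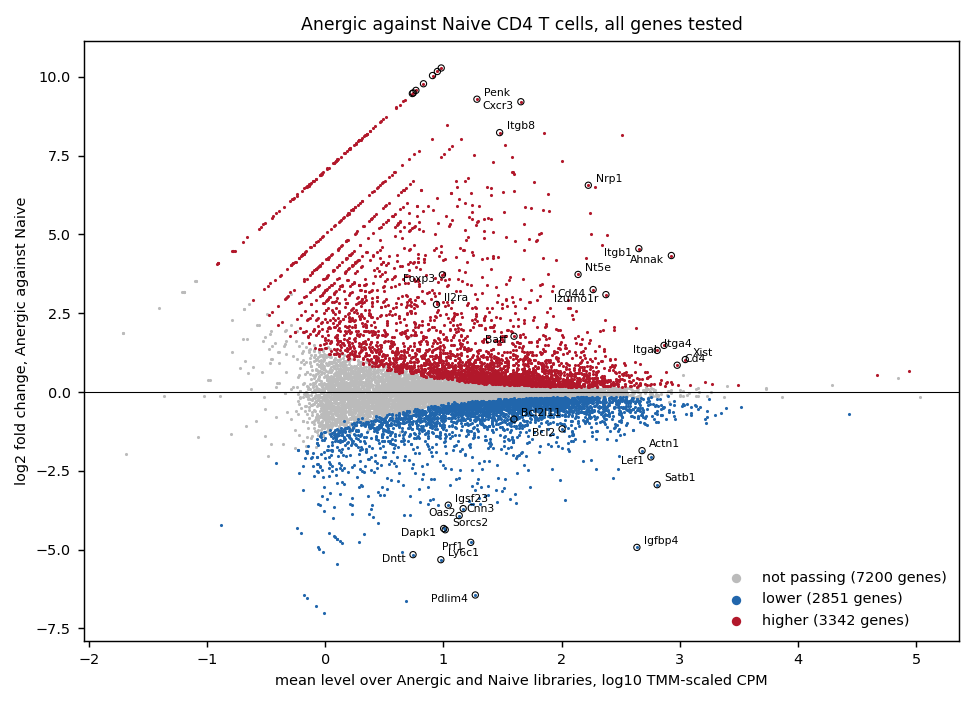
Log2 fold change (vertical, Anergic against Naive) against the mean level over the 6 libraries (horizontal, log10 TMM-scaled CPM) for the tested genes, coloured by the test, with named genes circled. Red points (3342) reach further from 0 than blue points (2851), the oblique lines at the upper left are genes with 0 to a few Naive counts, and 4 genes at 0 in both subsets are not drawn.

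Of the genes of the sort markers, Cd44, Nt5e, Izumo1r and Nrp1 followed the gates. Cd44, the hyaluronan receptor used to define antigen experience, stood at 304, 329 and 369 CPM in the Anergic and 30.9, 34.6 and 40.4 in the Naive libraries. The libraries were far apart, a 9.49-fold difference (log2FC 3.25 ± 0.0922 SE, adjusted p = 1.08e-18). Nt5e, which encodes CD73, was at 278, 232 and 258 CPM in Anergic and 21, 17.2 and 19.9 in Naive libraries (log2FC 3.73 ± 0.0937 SE, adjusted p = 1.03e-19). Izumo1r, the gene of FR4, was at 422, 429 and 421 against 48.5, 51.4 and 49.3 CPM (log2FC 3.09 ± 0.0684 SE, adjusted p = 1.29e-20). Of the gated genes Nrp1, the semaphorin co-receptor neuropilin 1, had the largest difference. It was at 370.4, 301 and 326 CPM in Anergic and 4.00, 3.96 and 2.43 in Naive libraries, 94.4-fold higher (log2FC 6.56 ± 0.137 SE, adjusted p = 4.14e-21). Cd4 was itself higher in Anergic cells, at 1222 ± 69.3 against 676 ± 46.3 CPM, a 1.81-fold difference (log2FC 0.85 ± 0.0675 SE, adjusted p = 1.99e-10), while in Teff it stood at 653 ± 30.9 CPM. All 7 listed sort markers passed as higher, with a median log2 fold change of 3.25. As the gates chose cells on the products of Cd44, Nt5e, Izumo1r and Nrp1, the differences of these genes check the labels and are no finding. Higher Cd4, Foxp3 and Il2ra are no such check. CD4 is common to both subsets, the Anergic gate was FOXP3–, and no CD25 gate is given for Anergic cells.

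Foxp3, the lineage factor of regulatory T cells, was low but present in the Anergic libraries, although their gate took cells without the reporter. It was at 20.4, 15 and 19.3 CPM in Anergic and 1.24, 1.61 and 1.21 in Naive libraries (log2FC 3.72 ± 0.193 SE, adjusted p = 7.86e-14). In Teff, gated in the same way for the reporter, it was at 0.735 ± 0.331 CPM and in Treg at 543 ± 16.3 (Anergic against Treg: log2FC -4.90 ± 0.0917 SE, adjusted p = 2.15e-21). Il2ra, the gene of CD25, was at 11.3, 13.8 and 20.6 CPM in Anergic, 3.03, 1.61 and 1.97 in Naive, and 709.9 ± 48.9 in Treg libraries. Teff, also without the reporter, held more of it than Anergic cells, 44.5 ± 5.43 CPM (Anergic against Teff: log2FC -1.56 ± 0.142 SE, adjusted p = 6.2e-09). Whether a small number of Treg cells in the Anergic sort, or low transcription in Anergic cells, gives this level was not tested.

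**Figure D2:**
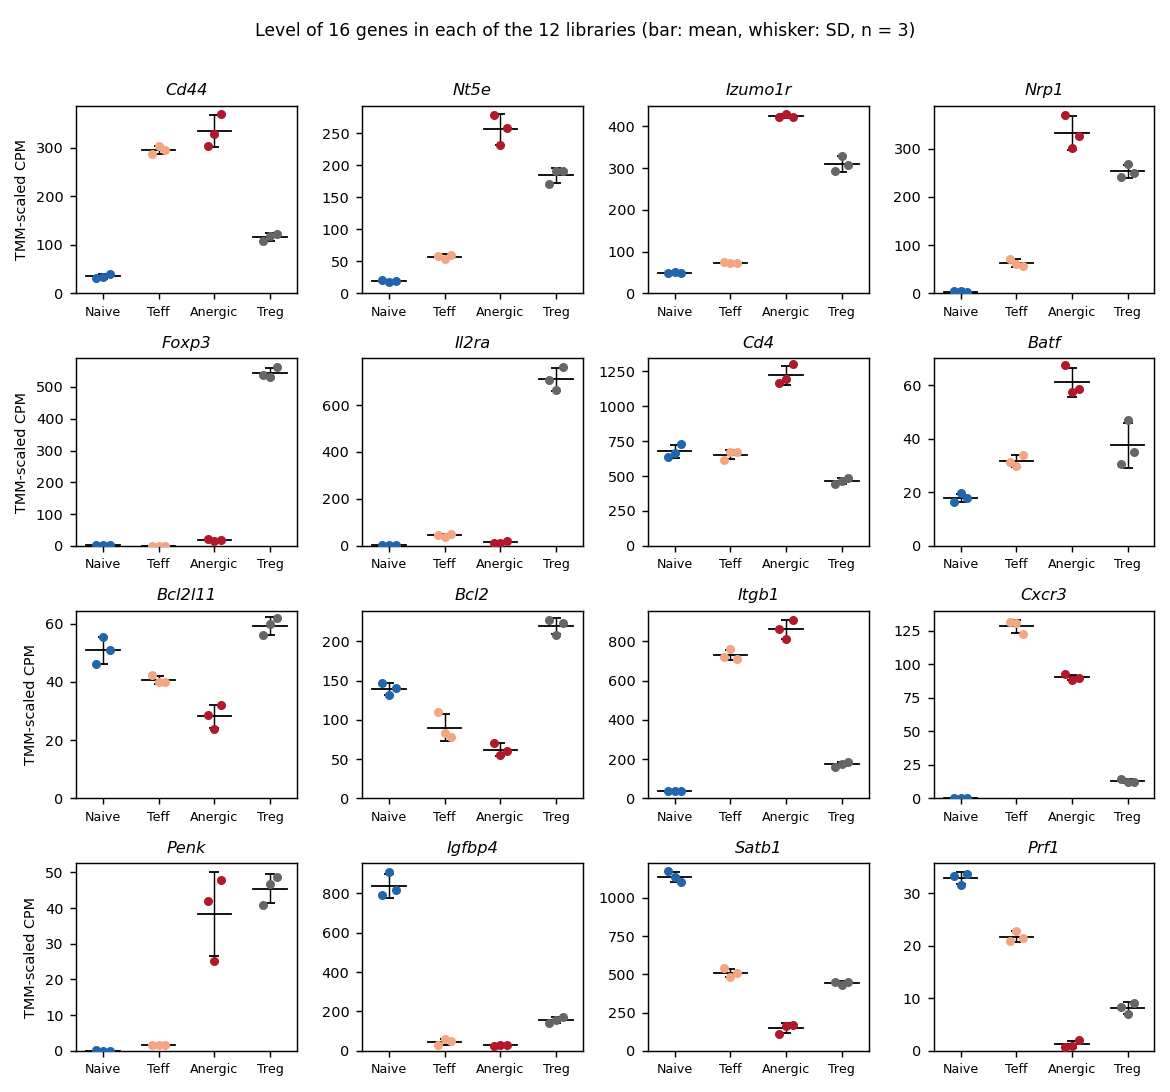
TMM-scaled CPM (vertical, each panel from 0) of 16 genes in all 12 libraries by subset (horizontal), with points for libraries, a bar for the mean and a whisker for the SD (n = 3). Cd44, Nrp1, Itgb1 and Cxcr3 are high in Anergic and near the base in Naive libraries, while Igfbp4, Satb1 and Prf1 show the opposite, and the Foxp3 panel is set by Treg.

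The 2 genes of the series title differed in opposite directions. Batf was at 67.5, 57.4 and 58.6 CPM in the Anergic and 16.3, 19.6 and 17.9 in the Naive libraries. Every Anergic library exceeded every Naive one, by 3.41-fold on average (log2FC 1.77 ± 0.127 SE, adjusted p = 3.44e-11). Bcl2l11, which encodes BIM, was at 28.6, 23.9 and 31.9 CPM in the Anergic and 46, 55.4 and 50.8 in the Naive libraries. Here every Anergic library was below every Naive one, a 1.81-fold difference (log2FC -0.86 ± 0.0975 SE, adjusted p = 9.9e-08). Teff stood between the 2 subsets for both genes, with Batf at 31.7 ± 2.16 and Bcl2l11 at 40.7 ± 1.33 CPM. All libraries are wildtype, so the levels are no test of regulation of one gene by the other. Batf spans chr12:85686669-85709087 and Bcl2l11 chr2:128126038-128162547, both on the plus strand and both protein-coding in GENCODE's annotation of GRCm38.

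Bcl2, the pro-survival partner that BIM binds, was lower too. It was at 70.9, 54.6 and 60.7 CPM in Anergic and 147, 131 and 141 in Naive libraries, without overlap, 2.25-fold lower (log2FC -1.17 ± 0.103 SE, adjusted p = 1.46e-09). Of 7 listed pro-survival BCL2 family genes 6 were tested, of which 4 were higher and 2 lower. Bcl2l1, which encodes BCL-XL, was higher at 29.8 ± 3.82 against 17.1 ± 0.462 CPM (log2FC 0.80 ± 0.107 SE, adjusted p = 1.26e-06), and Mcl1, which encodes a short-lived protector, lower at 329.9 ± 8.49 against 480.2 ± 10.9 (log2FC -0.54 ± 0.0617 SE, adjusted p = 9.88e-08). Bcl2a1d, a gene of the A1 cluster whose near-identical copies can share reads, was at 10.3 ± 0.611 against 0.607 ± 0.206 CPM (log2FC 4.09 ± 0.287 SE, adjusted p = 2.29e-11).

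The killers of the family did not move as one. Of 8 listed BH3-only genes 7 were tested, 3 higher, 2 lower and 2 not passing. Pmaip1, the gene of NOXA, which counters MCL1, was higher at 21.6, 14.7 and 13.1 CPM in Anergic against 1.38, 2.23 and 1.97 in Naive libraries (log2FC 3.13 ± 0.235 SE, adjusted p = 7.54e-11). Bbc3, the gene of PUMA, was lower along with Bcl2l11, at 6.47, 5.17 and 4.79 against 13.7, 15 and 16.9 CPM (log2FC -1.46 ± 0.171 SE, adjusted p = 1.49e-07). Bmf was higher at 6.93 ± 0.199 against 3.58 ± 0.616 CPM (log2FC 0.96 ± 0.223 SE, adjusted p = 0.00105), and Bid passed at a 1.39-fold difference (adjusted p = 0.0276) that lost its call with DESeq2, with total-count scaling, and without Anergic replicate 2 or 3 or Naive replicate 1 or 2 (log2 fold changes of 0.40 to 0.48). Of 16 tested death effectors and receptors (17 listed) 8 were higher and 5 lower. Casp1, the inflammatory caspase gene, was higher at 39.3, 30.8 and 29.4 CPM in Anergic against 2.21, 0.372 and 2.12 in Naive libraries (log2FC 4.44 ± 0.251 SE, adjusted p = 4.07e-13), whereas Casp8, the initiator caspase gene of death receptors, was lower at 107 ± 3.81 against 143 ± 5.08 (log2FC -0.42 ± 0.0654 SE, adjusted p = 1.15e-05).

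The 10 highest fold changes among genes with at least 10 CPM in Anergic cells were mostly of genes with no Naive count at all. For these 7 genes the fold is a lower bound: 3 counts were assumed for the 3 Naive libraries together, which covers counting error only. Ifng, the gene of the Th1 cytokine interferon gamma, was at 23.8, 14.2 and 10.5 CPM in Anergic libraries and at 0 in the Naive ones, at least 119.7-fold higher, and stood at 25.1 ± 1.98 CPM in Teff. Spp1, the gene of the secreted phosphoprotein osteopontin, was at 12.7, 8.57 and 11.4 CPM and 0, at least 79.5-fold higher, with 0.0800 ± 0.0694 CPM in Teff and 0 in Treg. Fam160a1 was at 27.3, 12.6 and 17.6 CPM, at least 140.2-fold, and Fam84a at 22, 11 and 20.2 CPM, at least 129-fold higher than in Naive. Clip3, Shtn1 and Cpne7 were at 13.6 ± 3.20, 11.7 ± 2.38 and 11.1 ± 3.38 CPM in Anergic cells, at least 98.8-fold, 85.5-fold and 81.3-fold higher in turn.

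Penk, the gene of the opioid peptide precursor proenkephalin, had 1 count in the 3 Naive libraries. At 42, 25.2 and 47.8 CPM in Anergic libraries its ratio was 832-fold (95% interval 149 to 32880). It was 525-fold without Naive replicate 2, and without Naive replicate 1, which held the count, at least 185-fold. In Treg it stood at 45.5 ± 4.16 CPM, a difference from Anergic that did not pass (log2FC -0.25 ± 0.148 SE, adjusted p = 0.223). Cxcr3, the receptor for interferon-induced chemokines, was at 92.6, 88.4 and 89.7 CPM in Anergic libraries and had 3 counts in Naive, a ratio of 659-fold (95% interval 225 to 3199). All 3 were in Naive replicate 2, without which the fold was at least 416. Itgb8, the integrin chain that with alpha V activates latent TGF-beta, was at 77.2, 46.1 and 55.4 CPM against 0, 0.248 and 0.304 (log2FC 8.23 ± 0.340 SE, adjusted p = 1.06e-15). All these genes were chosen for having no overlap between Anergic and Naive libraries. The Anergic libraries differed most among themselves for Fam160a1, Fam84a and Ifng.

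The 10 lowest fold changes were led by Pdlim4. This cytoskeletal adaptor gene was at 0.118, 0.587 and 0.532 CPM in Anergic and 34.6, 32.6 and 43.1 in Naive libraries, 86.7-fold lower (log2FC -6.44 ± 0.284 SE, adjusted p = 4.02e-15). Igfbp4, which encodes a secreted binding protein of insulin-like growth factors, was at 24.2, 31 and 27.3 against 790.2, 908 and 818 CPM (log2FC -4.93 ± 0.156 SE, adjusted p = 8.11e-18). Dntt, the terminal transferase of antigen receptor assembly in the thymus, was at 0.118, 0.470 and 0.266 against 8.82, 11.7 and 11.8 CPM (log2FC -5.16 ± 0.406 SE, adjusted p = 1.75e-10). As a condition of their choice, none of these genes overlapped between the subsets. Prf1, the gene of the pore-forming protein perforin, was higher in the resting than in the Anergic cells. Its levels were 0.706, 0.939 and 2.00 CPM in Anergic and 33.2, 31.5 and 33.7 in Naive libraries, 27.3-fold apart (log2FC -4.77 ± 0.205 SE, adjusted p = 2.29e-15), with 21.7 ± 0.996 CPM in Teff.

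The others of the 10 lowest were Ly6c1, Sorcs2, Dapk1, Cnn3, Oas2 and Igsf23. Ly6c1, a surface glycoprotein gene with the near-identical neighbour Ly6c2, was at 0.431 ± 0.378 against 18.6 ± 2.46 CPM in Naive (log2FC -5.32 ± 0.328 SE, adjusted p = 1.98e-12). Dapk1, a death-associated kinase gene, was at 0.953 ± 0.525 against 19.1 ± 1.58 CPM (log2FC -4.33 ± 0.259 SE, adjusted p = 1.21e-12), and Oas2, an interferon-induced sensor of double-stranded RNA, at 2.09 ± 0.153 against 27.3 ± 6.41 (log2FC -3.70 ± 0.206 SE, adjusted p = 2.93e-13). Sorcs2, Cnn3 and Igsf23 differed by -4.37, -3.92 and -3.59 on the log2 scale.

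Among genes that differed by 2-fold or more, those with the most counts were led by structural and adhesion genes in Anergic cells and included the transcription regulators Satb1 and Lef1 in Naive cells. Ahnak, which encodes a giant scaffold protein, was at 1624, 1460 and 1761 CPM in Anergic and 82, 80.7 and 78.3 in Naive libraries (log2FC 4.33 ± 0.0855 SE, adjusted p = 2.03e-21). In Teff it was at 1666 ± 117.6 CPM, and Anergic against Teff did not pass (log2FC -0.04 ± 0.0721 SE, adjusted p = 0.708). The integrin chains followed: Itgb1 was at 865, 813 and 911 against 37, 35.2 and 38.2 CPM, 23.5-fold higher (log2FC 4.55 ± 0.0802 SE, adjusted p = 5.39e-22), Itgal 2.78-fold and Itga4 2.50-fold higher. Xist, the long RNA of X inactivation, was 2.04-fold higher, at 1492 ± 72 against 732 ± 78 CPM. In the other direction Satb1, a chromatin organiser, was at 111, 164 and 169 against 1173, 1134 and 1105 CPM (log2FC -2.94 ± 0.105 SE, adjusted p = 6.44e-17), and Lef1, a relative of TCF7 in WNT-type transcription, at 203, 226 and 233 against 923, 882 and 947 (log2FC -2.06 ± 0.0651 SE, adjusted p = 8.04e-18). Actn1, the gene of alpha-actinin 1, was 3.62-fold lower, at 154, 224 and 245 against 701, 753 and 797 CPM (log2FC -1.86 ± 0.112 SE, adjusted p = 1.44e-12). Teff stood at 729.5 ± 26.05 CPM for Itgb1, 509.7 ± 28.4 for Satb1, 300.1 ± 9.11 for Lef1 and 269.5 ± 28.75 for Actn1.

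The homing and quiescence genes of Naive cells were lower in Anergic cells, but not all of them. Of 9 genes for homing and egress 7 were lower and 1 higher, with a median log2 fold change of -1.32. Ccr7, the chemokine receptor for entry into lymph nodes, was at 68.5, 81.4 and 81.5 against 230.1, 233 and 224 CPM (log2FC -1.57 ± 0.0848 SE, adjusted p = 1.63e-13). S1pr1, the receptor for leaving the node, was at 169, 176 and 180.0 against 478, 431 and 432 CPM (log2FC -1.35 ± 0.0701 SE, adjusted p = 7.5e-14), and Cd55, a complement inhibitor gene, was 6.62-fold lower. The exception was Itgae, the CD103 chain that binds epithelial E-cadherin, at 6.70, 6.34 and 9.98 CPM in Anergic libraries with 3 counts in Naive, a ratio of 55.4-fold (95% interval 18.7 to 271), which was 111-fold without Naive replicate 1 and 35-fold without Naive replicate 2. With all libraries its adjusted p was 2.57e-07.

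Of 18 naive and quiescence factors 10 were lower, 3 higher and 5 did not pass. Bach2, a repressor that limits effector differentiation, was at 52.1, 49.3 and 49.4 against 196, 169 and 166 CPM (log2FC -1.81 ± 0.0741 SE, adjusted p = 8.99e-16). Tcf7, the stem-like factor named after its values were seen, differed far less than its relative Lef1: it was at 1550, 1642 and 1686 CPM in Anergic and 1862, 1857 and 1922 in Naive libraries, a 1.16-fold difference (log2FC -0.21 ± 0.0623 SE, adjusted p = 0.00788), against 1117 ± 52.3 CPM in Teff. Id3, an inhibitor of E proteins, was on the other side at 25.6, 27.4 and 26.5 against 13.2, 19.6 and 19.4 CPM (log2FC 0.60 ± 0.137 SE, adjusted p = 0.000813). Of 18 genes listed as naive-restricted 14 were tested, 10 lower and 1 higher, among them Atp1b1, a sodium pump subunit gene, at 12 ± 2.18 against 97 ± 8.98 CPM (log2FC -3.01 ± 0.127 SE, adjusted p = 1.73e-15). This list was drawn with earlier results of these samples known, so its direction is not independent evidence.

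Genes switched on by the T cell receptor were split in Anergic cells. Of 17 listed 15 were tested, 9 higher, 4 lower and 2 not passing. Nfatc1, the calcium-regulated factor that amplifies its own transcription, was at 743, 645 and 646 against 170.3, 176 and 153 CPM, 4.07-fold higher (log2FC 2.02 ± 0.0743 SE, adjusted p = 1.15e-16). Egr3, an early growth response factor tied to anergy, was at 64.3, 65.3 and 64.6 against 32.8, 27.4 and 31.4 CPM (log2FC 1.09 ± 0.0896 SE, adjusted p = 4.14e-10), and Tnfrsf9, the gene of 4-1BB, at 40.2, 38.6 and 46.1 against 9.10, 9.05 and 7.44 (log2FC 2.28 ± 0.133 SE, adjusted p = 7.59e-13). Myc, the growth factor-induced regulator of biosynthesis, differed the other way, at 21.3, 27.4 and 31.9 CPM in Anergic and 71.4, 85.4 and 83.2 in Naive libraries (log2FC -1.58 ± 0.105 SE, adjusted p = 7.79e-12). Nr4a1, the orphan receptor gene that reports recent receptor signals, was also lower at 70.1, 59.3 and 60.0 against 96.1, 90.8 and 92.4 CPM (log2FC -0.56 ± 0.0762 SE, adjusted p = 1.57e-06). Egr2 had too few counts to be tested.

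Inhibitory receptors were mostly higher. Of 15 listed 13 were tested, with 11 higher, 1 lower, 1 not passing and a median log2 fold change of 3.66. Pdcd1, the gene of PD-1, was at 142, 115 and 121 CPM in Anergic and 4.41, 4.09 and 3.04 in Naive libraries, 32.4-fold higher (log2FC 5.02 ± 0.133 SE, adjusted p = 2.78e-19). Tigit, which competes for the ligands of a costimulatory receptor, was at 101, 63.5 and 71.9 against 0.414, 0.620 and 0.911 CPM (log2FC 6.91 ± 0.256 SE, adjusted p = 1.41e-16), and Cd200, the ligand of a myeloid inhibitory receptor, at 65.9, 66.5 and 71.1 against 4.69, 5.95 and 5.31 (log2FC 3.66 ± 0.125 SE, adjusted p = 3.13e-17). Teff held less of all 3, with Pdcd1 at 21.1 ± 0.765, Tigit at 14.2 ± 0.450 and Cd200 at 13.8 ± 0.867 CPM (Anergic against Teff, where 26.6% of genes differed: adjusted p = 1.25e-15, 2.8e-12 and 2.54e-14). Lair1, the collagen-binding inhibitory receptor, was lower in Anergic cells at 1.90 ± 0.449 against 7.63 ± 1.25 CPM (log2FC -2.02 ± 0.250 SE, adjusted p = 3.72e-07).

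Costimulatory receptors were mostly higher as well. Of 11 genes of TNFR and CD28 type 9 were higher and 1 lower. Tnfrsf4, the gene of OX40, was at 99.6, 74.8 and 86 against 8.27, 6.94 and 6.68 CPM (log2FC 3.57 ± 0.119 SE, adjusted p = 1.83e-17), and Tnfrsf1b, the second TNF receptor, at 148 ± 22 against 37.7 ± 2.10 (log2FC 1.97 ± 0.103 SE, adjusted p = 9.15e-14). The lower member, Tnfrsf25, was a borderline call (adjusted p = 0.0297) that did not pass with DESeq2 or voom or without Anergic replicate 3 or Naive replicate 3.

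**Figure D3:**
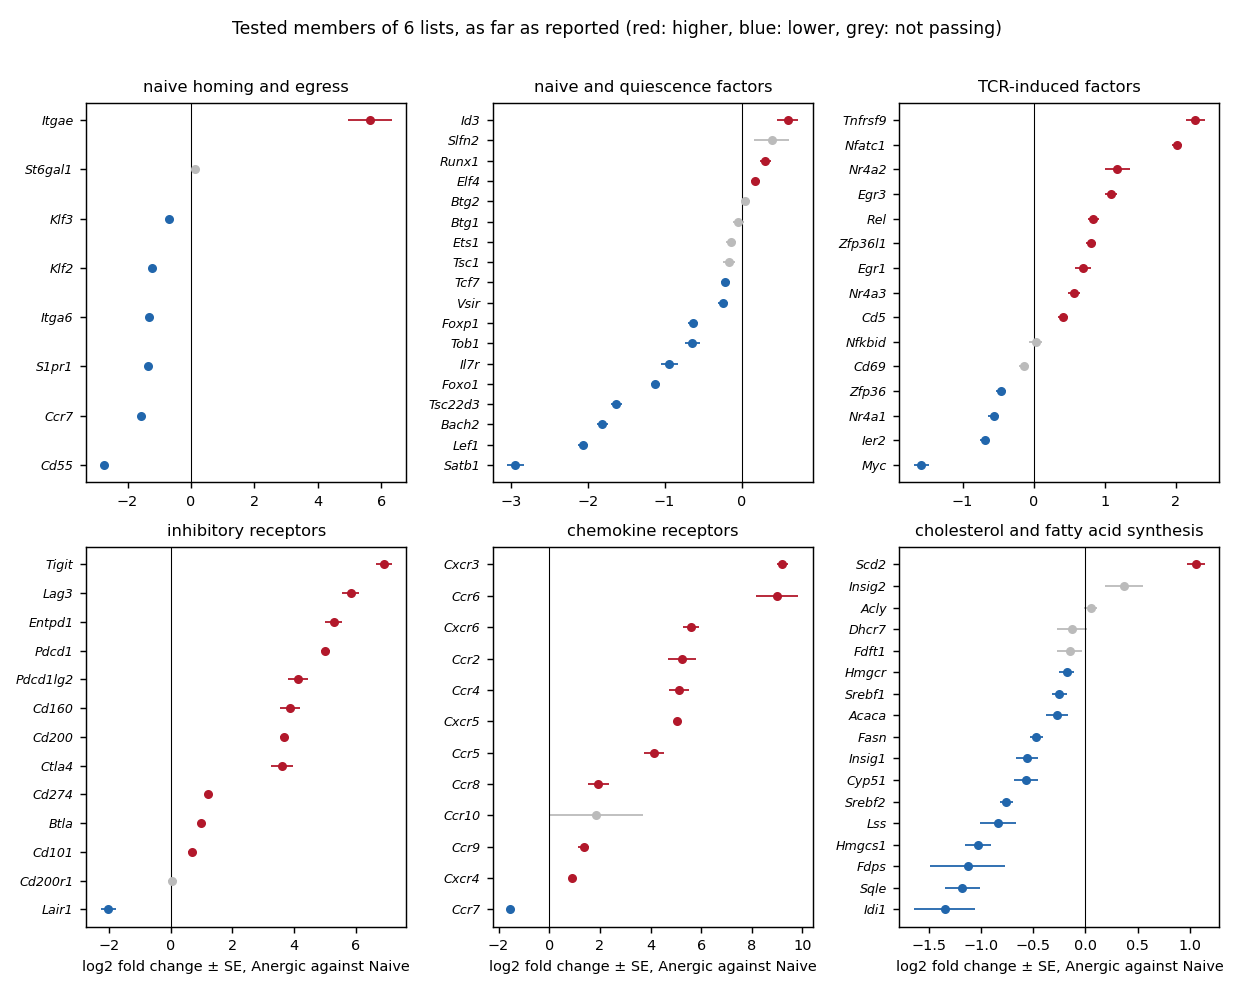
Log2 fold change with its SE (horizontal, Anergic against Naive) of tested members of 6 gene lists as far as they are reported here, 1 gene a row, red for higher, blue for lower and grey for not passing. Inhibitory and chemokine receptors lie right of 0 apart from Lair1 and Ccr7, homing genes lie left of 0 apart from Itgae and St6gal1, and TCR-induced factors lie on both sides.

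Of 26 E3 ligases and attenuators of receptor signals 10 were higher, 9 lower and 7 did not pass, with a median of 0.12. Ptpn22, a phosphatase acting on receptor-proximal kinases, was at 352, 308 and 322 against 127, 125 and 127 CPM (log2FC 1.37 ± 0.0737 SE, adjusted p = 1.51e-13). Ndfip1, an adaptor of the ITCH and NEDD4 ligases, was 2.16-fold higher at 194 ± 10.4 against 90.1 ± 8.88 CPM (log2FC 1.11 ± 0.0757 SE, adjusted p = 1.37e-11), and Sla, a SRC-like adaptor gene, 2.06-fold higher. The ligase gene Nedd4l was lower at 6.94, 9.98 and 9.45 against 43.3, 39.4 and 37.2 CPM (log2FC -2.19 ± 0.139 SE, adjusted p = 3.64e-12). Of the diacylglycerol kinase genes, which remove a second messenger of the receptor, Dgka was lower at 647, 678 and 618 against 1192, 1138 and 1210 CPM (log2FC -0.87 ± 0.0624 SE, adjusted p = 3.65e-11) and Dgkd at 98.5 ± 9.73 against 262 ± 11.5 (log2FC -1.41 ± 0.0705 SE, adjusted p = 3.89e-14). Dgkz, named after its values were seen, was higher at 668, 667 and 603 against 406, 438 and 412 CPM (log2FC 0.63 ± 0.0623 SE, adjusted p = 1.1e-08). Cblb, a ligase much studied in anergy, was at 183, 184 and 178 CPM in Anergic and 189, 156 and 157 in Naive libraries and did not pass (log2FC 0.12 ± 0.0829 SE, adjusted p = 0.26), though leaving out Naive replicate 1 gave it the call at a log2 fold change of 0.21 and an adjusted p of 0.0466. Itch did not pass either (log2FC -0.03 ± 0.0668 SE, adjusted p = 0.78). In both, the libraries overlapped. Rnf128, the gene of the ligase GRAIL named after its values were seen, was at 10.6, 7.98 and 10.8 CPM in Anergic libraries and had 3 counts in Naive, all in replicate 1, a ratio of 71.2-fold (95% interval 24.1 to 348). It was 44.9-fold without Naive replicate 2 and at least 47.6-fold without Naive replicate 1.

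The signalling parts nearest the receptor were raised in some places and lowered in others. Of 18 genes 7 were higher, 4 lower and 7 did not pass, with a median of 0.09. Over all tested genes 25.0% were higher and 21.3% lower. The kinase gene Zap70 was at 313, 285 and 272 against 137, 144 and 157 CPM (log2FC 0.99 ± 0.0685 SE, adjusted p = 1.77e-11), Fyn 1.86-fold and the scaffold gene Lcp2 1.82-fold higher. Grap2, an adaptor that links SLP-76 to LAT, was lower at 134, 159.9 and 156 against 453, 411 and 416 CPM (log2FC -1.51 ± 0.0726 SE, adjusted p = 1.96e-14), together with Prkcq, the protein kinase C theta gene (log2FC -0.44 ± 0.0587 SE, adjusted p = 1.33e-06). Of 15 dual-specificity phosphatases and Sprouty-type brakes on MAP kinases 8 were higher and 5 lower. Spry1 was at 62.6, 45.4 and 43.4 against 3.31, 2.35 and 1.82 CPM (log2FC 4.32 ± 0.204 SE, adjusted p = 1.4e-14), Dusp4 at 20.9 ± 2.14 against 2.88 ± 0.887 (log2FC 2.87 ± 0.183 SE, adjusted p = 3.86e-12), and Dusp10 lower at 48.6 ± 1.40 against 121 ± 12.1 (log2FC -1.32 ± 0.0853 SE, adjusted p = 4.83e-12). Of 9 RGS genes, which shorten G protein signals, 8 were tested, 3 higher and 4 lower. Rgs16 was at 62.1, 32 and 35.5 against 1.38, 1.11 and 1.21 CPM (log2FC 5.12 ± 0.287 SE, adjusted p = 3.6e-13), with Anergic replicate 1 the highest, and Rgs2 was lower (log2FC -0.65 ± 0.0943 SE, adjusted p = 3.95e-06).

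Genes that define regulatory and follicular helper T cells were higher in Anergic than in Naive cells. Of 25 listed Treg core genes 24 were tested and all 24 were higher, against 25.0% of all tested genes. Their median log2 fold change was 4.36, or 3.99 with the 4 members that had no Naive count set at their lower bound. The list holds 4 genes of the sort markers, Foxp3, Il2ra, Nrp1 and Nt5e; without them 20 of 20 were higher, with a median of 4.79, or 4.34 with bounds. Ikzf2, the gene of the Ikaros factor HELIOS, was at 459, 323 and 348 CPM in Anergic and 5.38, 2.85 and 4.25 in Naive libraries (log2FC 6.51 ± 0.158 SE, adjusted p = 5.67e-20), with 532 ± 8.10 CPM in Treg. Lrrc32, the gene of the latent TGF-beta carrier GARP, separated the 2 subsets from Treg: it was at 4.94, 3.76 and 3.46 CPM in Anergic libraries, 0 in Naive and 232 ± 7.89 in Treg. Its Anergic level was at least 29.8-fold above Naive. Il2rb, the shared IL-2 and IL-15 receptor chain, was at 307, 299 and 303 against 19, 13.9 and 14.7 CPM (log2FC 4.25 ± 0.0876 SE, adjusted p = 3.74e-21). The Treg core list, like the others, was drawn with earlier results of these data known, so its direction is not independent evidence. Many genes of this list are also expressed by activated conventional T cells, and the Foxp3 values above stand beside this count. The part of Treg cells was not tested.

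Of 21 follicular helper genes, those of the T cells that help B cells in germinal centres, 18 were tested, 16 higher and 1 lower, with a median of 2.55. Cxcr5, the receptor for follicle entry, was at 133, 128 and 128 against 3.31, 5.33 and 2.88 CPM (log2FC 5.04 ± 0.121 SE, adjusted p = 5.34e-20). Maf, a driver of IL-21 and IL-10 transcription, was at 537, 443 and 434 against 14.1, 15.2 and 15.2 CPM (log2FC 4.99 ± 0.0990 SE, adjusted p = 2.03e-21). The repressor gene Bcl6 and the cytokine gene Il21, named after their values were seen, were at 78.2, 67 and 74.5 against 20.5, 19 and 21.4 and at 69.9, 45.9 and 41.5 against 0.138, 0.372 and 0.455 CPM (log2FC 1.85 ± 0.0963 SE, adjusted p = 7.97e-14; log2FC 7.29 ± 0.339 SE, adjusted p = 1.05e-14). Il6ra, the IL-6 receptor gene, was the lower member (log2FC -0.74 ± 0.0655 SE, adjusted p = 1.61e-09).

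Genes of the Th1, Th2 and Th17 lineages were all mostly higher among those tested. Of 22 Th1 and cytotoxic genes 17 were tested, 13 higher and 2 lower. The Th1 regulator Tbx21 was at 38.7, 28.9 and 29.7 CPM in Anergic and 0.138, 1.61 and 0.152 in Naive libraries (log2FC 5.54 ± 0.287 SE, adjusted p = 7.55e-14). Naive replicate 2 held most of its Naive counts, and without that library the log2 fold change was 7.67. In Teff it was at 117 ± 1.89 CPM. Il18rap, an IL-18 receptor chain, was at 11.8 ± 2.05 against 0.767 ± 0.220 (log2FC 3.89 ± 0.275 SE, adjusted p = 2.54e-11). Of 10 Th2 genes 7 were tested, 6 higher and 1 lower. Gata3 was 2.37-fold higher at 156 ± 11.6 against 66 ± 0.410 CPM (log2FC 1.24 ± 0.0728 SE, adjusted p = 8.04e-13), while Il4ra, the IL-4 receptor chain, was lower at 56, 63.2 and 62.3 against 308, 342 and 332 (log2FC -2.44 ± 0.0749 SE, adjusted p = 4.38e-18). Of 9 Th17 genes only 5 had counts enough to be tested, and all 5 were higher, led by Rora at 59.3 ± 3.35 against 9.09 ± 2.84 CPM (log2FC 2.72 ± 0.144 SE, adjusted p = 1.14e-13). Il4, the cytokine gene of the Th2 lineage named after its values were seen, was at 3.06, 6.11 and 6.79 CPM in Anergic libraries and had 2 counts in Naive, a ratio of 57.6-fold (95% interval 15.6 to 481). Both were in Naive replicate 2, without which the fold was at least 24.3. The signature cytokine genes Il17a, Il17f, Il22, Il5 and Il13 had too few counts to be tested.

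Genes of secreted factors were mostly higher in Anergic cells. Of 26 listed 24 were tested, 21 higher and 1 lower, with a median of 5.45, or 4.66 with 5 members at their lower bound; this list too was drawn with those results known, and its direction is not independent evidence. Tnfsf11, the gene of RANKL, was at 72.1, 64.7 and 58.3 against 1.93, 2.48 and 1.97 CPM (log2FC 4.91 ± 0.154 SE, adjusted p = 6.5e-18). Tnfsf8, the CD30 ligand gene, was at 238, 188 and 190.4 against 33.4, 33.3 and 29.4 CPM (log2FC 2.68 ± 0.0936 SE, adjusted p = 4.7e-17), with 34.2 ± 1.20 CPM in Teff (not passing in Teff against Naive, where 34.9% of genes differed: log2FC 0.09 ± 0.105 SE, adjusted p = 0.55). Tnfsf14, the gene of LIGHT, was at 33.9 ± 3.39 against 0.749 ± 0.288 CPM (log2FC 5.50 ± 0.223 SE, adjusted p = 7.73e-16). Il2 and Il10, named after their values were seen for their place in T cell responses, were low in these freshly isolated cells. Il2 was at 1.76, 1.41 and 1.20 CPM in Anergic libraries and 0 in Naive, at least 10.7-fold higher, and Il10 at 5.53, 1.17 and 2.00 CPM and 0, at least 21.4-fold higher. Most Il10 counts were in Anergic replicate 1, without which the bound was 11.4-fold.

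The TGF-beta genes differed in both directions. Of 16 listed 15 were tested, 7 higher and 6 lower, with a median of -0.01. Besides Itgb8 and Lrrc32, the integrin chain gene Itgav was higher at 125, 106 and 109 against 33.4, 34.5 and 30.4 CPM (log2FC 1.79 ± 0.0802 SE, adjusted p = 5.44e-15). Smad7, the inhibitory SMAD induced by the pathway, was lower at 73.6, 62.7 and 57.2 against 283, 291 and 289.9 CPM (log2FC -2.15 ± 0.0770 SE, adjusted p = 6.83e-17). The receptor genes Tgfbr2 (log2FC -0.54 ± 0.0612 SE, adjusted p = 8.14e-08) and Tgfbr3 (log2FC -0.93 ± 0.0796 SE, adjusted p = 7.45e-10) were lower too.

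Chemokine receptors, which steer T cells into tissues, were mostly higher, in contrast to Ccr7. Of 16 chemokine receptors 12 were tested, 10 higher and 1, Ccr7, lower, with a median of 4.59, the same with Ccr6 at its lower bound. Cxcr6, a receptor of tissue-resident T cells, was at 14.7, 22.2 and 24.9 CPM in Anergic and 0.414, 0.496 and 0.304 in Naive libraries (log2FC 5.59 ± 0.309 SE, adjusted p = 2.68e-13), with 215 ± 11.2 CPM in Teff. Ccr4, one of the genes whose window is printed above, was at 16.1, 33.7 and 38.7 against 0.689, 0.868 and 0.911 CPM (log2FC 5.13 ± 0.401 SE, adjusted p = 1.58e-10), lowest in Anergic replicate 1 and still above every Naive library. Of 21 integrins and selectin ligand genes 12 were higher and 7 lower. Itgb3, the beta 3 integrin chain, differed from the beta 1 chain in direction, at 17.5, 24.7 and 31.3 against 162, 172 and 176 CPM (log2FC -2.80 ± 0.116 SE, adjusted p = 1.04e-15), and Itga6 was lower at 71.8 ± 4.89 against 179 ± 2.53 (log2FC -1.32 ± 0.0681 SE, adjusted p = 7.18e-14).

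Among cytokine receptors Il7r and Il4ra were lower and Il2rb higher. Of 18 common gamma chain receptor and SOCS genes 9 were higher, 6 lower and 3 did not pass. Il7r, which carries the survival signal of resting T cells, was at 119.9, 138 and 175 against 299.7, 250.3 and 281 CPM (log2FC -0.94 ± 0.109 SE, adjusted p = 1.21e-07). Il9r was at 17.4 ± 3.07 against 0.234 ± 0.0967 CPM (log2FC 6.15 ± 0.356 SE, adjusted p = 6.44e-13) and Jak3, the kinase of the shared chain, 1.91-fold higher. Socs3, a feedback inhibitor of IL-6 type signals, was lower at 52.9 ± 12.7 against 105 ± 9.75 CPM (log2FC -0.99 ± 0.115 SE, adjusted p = 1.5e-07).

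The class of Batf itself differed in both directions. Of 21 listed BATF, AP-1, BACH and IRF genes 17 were tested, 8 higher and 8 lower, with a median of -0.11. Irf4, the partner of BATF at composite sites, was at 108, 84.4 and 90.1 against 13.9, 15.7 and 9.26 CPM (log2FC 2.84 ± 0.125 SE, adjusted p = 3.48e-15), and Nfil3, a repressor of the basic leucine zipper class, at 40.9, 22.3 and 26.1 against 1.79, 1.98 and 1.21 (log2FC 4.13 ± 0.258 SE, adjusted p = 2.5e-12). Bach1 and Mafk, which form dimers with one another, were both lower (log2FC -0.89 ± 0.100 SE, adjusted p = 8.51e-08; log2FC -0.65 ± 0.105 SE, adjusted p = 1.55e-05). The BATF partners Jun and Junb, named after their values were seen, were lower at 471 ± 92.2 against 754 ± 145 and 597 ± 97.1 against 792 ± 10.5 CPM (log2FC -0.68 ± 0.150 SE, adjusted p = 0.000611; log2FC -0.41 ± 0.0823 SE, adjusted p = 0.000251), and Fos did not pass (log2FC -0.11 ± 0.177 SE, adjusted p = 0.644).

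Of 16 regulators of IL-10 and effector differentiation 15 were tested, 12 higher and 3 lower. Bhlhe40, a repressor of IL-10 in effector cells, was at 188, 104 and 114 against 2.76, 1.98 and 2.73 CPM (log2FC 5.77 ± 0.237 SE, adjusted p = 9.98e-16), and Id2, the effector counterpart of Id3, at 106, 103 and 113 against 32.5, 30.2 and 29.9 (log2FC 1.80 ± 0.0706 SE, adjusted p = 4.32e-16). Zbtb7b, the CD4 lineage factor ThPOK, was slightly lower at 118 ± 10.2 against 141 ± 5.28 CPM (log2FC -0.26 ± 0.0704 SE, adjusted p = 0.0039). In the NFAT and NF-kB families 14 of 18 were higher and 2 lower, or 1 lower without Anergic replicate 2 or 3 or Naive replicate 1 or 3. Nfkb2 was 1.85-fold and Nfat5 1.83-fold higher (log2FC 0.89 ± 0.0667 SE, adjusted p = 7.37e-11; log2FC 0.87 ± 0.0716 SE, adjusted p = 3.87e-10), and Rcan3, a calcineurin inhibitor gene, lower at 23.9 ± 1.46 against 50.6 ± 6.66 CPM (log2FC -1.08 ± 0.106 SE, adjusted p = 7.71e-09).

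Cell cycle genes were mostly higher in the Anergic libraries. Of 26 cell cycle genes 20 were higher and 1 lower, with a median of 1.51, and the higher count ran from 14 to 21 over all settings tried. Mki67, the gene of the proliferation marker Ki-67, was at 84.3, 89.7 and 131 CPM in Anergic and 2.76, 4.21 and 3.34 in Naive libraries (log2FC 4.87 ± 0.188 SE, adjusted p = 3.17e-16), and 144 ± 15.3 in Teff. Top2a, the topoisomerase of mitosis, was at 62.7, 57.6 and 82.8 against 8.41, 9.29 and 6.83 CPM (log2FC 3.03 ± 0.146 SE, adjusted p = 1.98e-14), and Mcm6, a subunit of the replication helicase, at 158, 146 and 158 against 55.4, 60.5 and 59 (log2FC 1.40 ± 0.0694 SE, adjusted p = 3.31e-14). Anergic replicate 3, the library with the lowest TMM factor, was the highest for Mki67 and Top2a. Pcna, the sliding clamp gene, was the lower member with a 1.18-fold difference (adjusted p = 0.0323), a call lost with DESeq2 and without Anergic replicate 1 or 2 or Naive replicate 1. Of 17 G1 cyclins and CDK inhibitors 15 were tested, 5 higher and 3 lower. Cdk6 was at 47.6 ± 6.44 against 14.7 ± 1.20 CPM (log2FC 1.69 ± 0.116 SE, adjusted p = 1.55e-11) and the CDK inhibitor gene Cdkn2c at 11.6 ± 1.70 against 1.49 ± 0.980 (log2FC 2.90 ± 0.290 SE, adjusted p = 1.16e-08; log2 fold change 3.61 without Naive replicate 2), while Cdkn2d (log2FC -1.16 ± 0.106 SE, adjusted p = 2.93e-09) and the cyclin gene Ccnd3 (log2FC -0.48 ± 0.0683 SE, adjusted p = 3.29e-06) were lower. Of 55 tested clustered histone genes, a group picked after the files were seen, 34 were higher and 1 lower (20 to 38 higher over all settings).

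Ribosomal protein and cholesterol synthesis genes were mostly lower. Of 86 tested cytosolic ribosomal protein genes, a group also picked after the files were seen, 80 were lower and 1 higher, with a median log2 fold change of -0.57, and 76 to 80 were lower over all settings. Rps19, chosen after its values were seen as the lowest of them, was at 292, 372 and 364 against 634, 711 and 763 CPM (log2FC -1.04 ± 0.0870 SE, adjusted p = 5.58e-10). Of 10 small nucleolar RNA host genes 8 were lower, with a median of -0.68. By contrast 6 of 46 nuclear genes of respiratory complex I were higher and 6 lower. Of 20 cholesterol and fatty acid synthesis genes 19 were tested, 14 lower and 1 higher. Srebf2, the regulator of the cholesterol pathway, was at 140.0, 139.9 and 139 against 246, 225 and 239.8 CPM, 1.70-fold lower (log2FC -0.76 ± 0.0638 SE, adjusted p = 5.21e-10). The higher member was Scd2, a fatty acid desaturase gene, at 123 ± 12.4 against 59 ± 3.17 CPM (log2FC 1.06 ± 0.0863 SE, adjusted p = 3.2e-10). Of 18 glycolysis genes 9 were higher and 4 lower, with small differences apart from Hk2 at 6.01 ± 0.929 against 0.390 ± 0.312 CPM (log2FC 3.82 ± 0.367 SE, adjusted p = 5.76e-09; log2 fold change 4.70 without Naive replicate 2); the glucose transporter genes Slc2a1 (log2FC -0.36 ± 0.101 SE, adjusted p = 0.00505) and Slc2a3 (log2FC -0.63 ± 0.101 SE, adjusted p = 1.61e-05) and the enolase gene Eno1 were lower.

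Several genes of adenosine handling differed beside Nt5e. Of 17 adenosine and cyclic AMP genes 15 were tested, 8 higher and 4 lower. Entpd1, the gene of CD39, which makes the substrate of CD73, was at 25.5, 19 and 20.9 against 0.827, 0.496 and 0.304 CPM (log2FC 5.28 ± 0.289 SE, adjusted p = 2.23e-13). Slc29a1, which carries adenosine into the cell, was at 69.4, 59.4 and 57.5 against 13.1, 16.5 and 14.4 CPM (log2FC 2.08 ± 0.104 SE, adjusted p = 3.88e-14), and Ada, which degrades it, lower at 1.06, 1.29 and 1.20 against 6.76, 5.21 and 5.31 (log2FC -2.27 ± 0.289 SE, adjusted p = 5.56e-07). The cyclic AMP phosphodiesterase genes Pde4d (log2FC -1.26 ± 0.0935 SE, adjusted p = 6.03e-11) and Pde3b (log2FC -1.28 ± 0.121 SE, adjusted p = 4.31e-09) were lower.

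Of 12 neuropilin, semaphorin and plexin genes 6 were higher, Nrp1 included, and 3 lower. The receptor gene Plxnc1 was at 43.3, 53.4 and 53.9 against 9.79, 10.8 and 8.50 CPM (log2FC 2.36 ± 0.123 SE, adjusted p = 8.32e-14), and Sema4a, a reported ligand of neuropilin 1, lower at 12.2, 11.2 and 13.2 against 61.9, 76.6 and 77.1 (log2FC -2.56 ± 0.104 SE, adjusted p = 7.98e-16); with a minimum of 5 CPM in 3 libraries 3 members were higher. Of 18 S100, annexin and galectin genes 16 were tested, 12 higher and 1 lower. S100a6 was at 42.9, 30.1 and 35.4 against 0.138, 0.124 and 0.304 CPM (log2FC 7.51 ± 0.340 SE, adjusted p = 6.39e-15), and Anxa2, the window of which is printed above, at 48.3, 40.6 and 45.4 against 1.79, 2.85 and 2.28 (log2FC 4.26 ± 0.159 SE, adjusted p = 1.67e-16). Vim, the intermediate filament gene often raised with activation, was the lower one (log2FC -0.40 ± 0.0837 SE, adjusted p = 0.000312).

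Of 11 SLAM family genes, receptors by which lymphocytes contact one another, 8 were tested and 7 were higher. Slamf6 was at 374, 359.6 and 336 against 94.7, 82.4 and 97.7 CPM (log2FC 1.96 ± 0.0700 SE, adjusted p = 6.77e-17). Of 8 GIMAP GTPases, which support lymphocyte survival, 5 were higher, Gimap7 by 2.26-fold (log2FC 1.17 ± 0.0811 SE, adjusted p = 1.71e-11). Of 13 DNA methylation enzymes 6 were higher and 5 lower, the latter 3 to 5 over all settings. Uhrf1, which maintains methylation in dividing cells, was at 15.8 ± 3.04 against 2.91 ± 0.638 CPM (log2FC 2.45 ± 0.211 SE, adjusted p = 9e-10), whereas the demethylases Tet1 (log2FC -1.70 ± 0.164 SE, adjusted p = 6.48e-09) and Tet3 (log2FC -0.75 ± 0.0671 SE, adjusted p = 1.68e-09) were lower. Interferon-response genes did not share a direction, with 7 of 24 higher, 8 lower and a median of -0.04. Mx1, an antiviral GTPase gene, was at 16.6 ± 3.70 against 3.75 ± 0.263 CPM (log2FC 2.14 ± 0.216 SE, adjusted p = 1.35e-08) and Ifit2 lower at 48.1 ± 4.00 against 86 ± 6.46 (log2FC -0.84 ± 0.0860 SE, adjusted p = 1.75e-08). Of 13 stress genes 2 were higher and 3 lower (2 to 5 over all settings), 38.5% called against 46.2% of all tested genes.

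**Figure D4:**
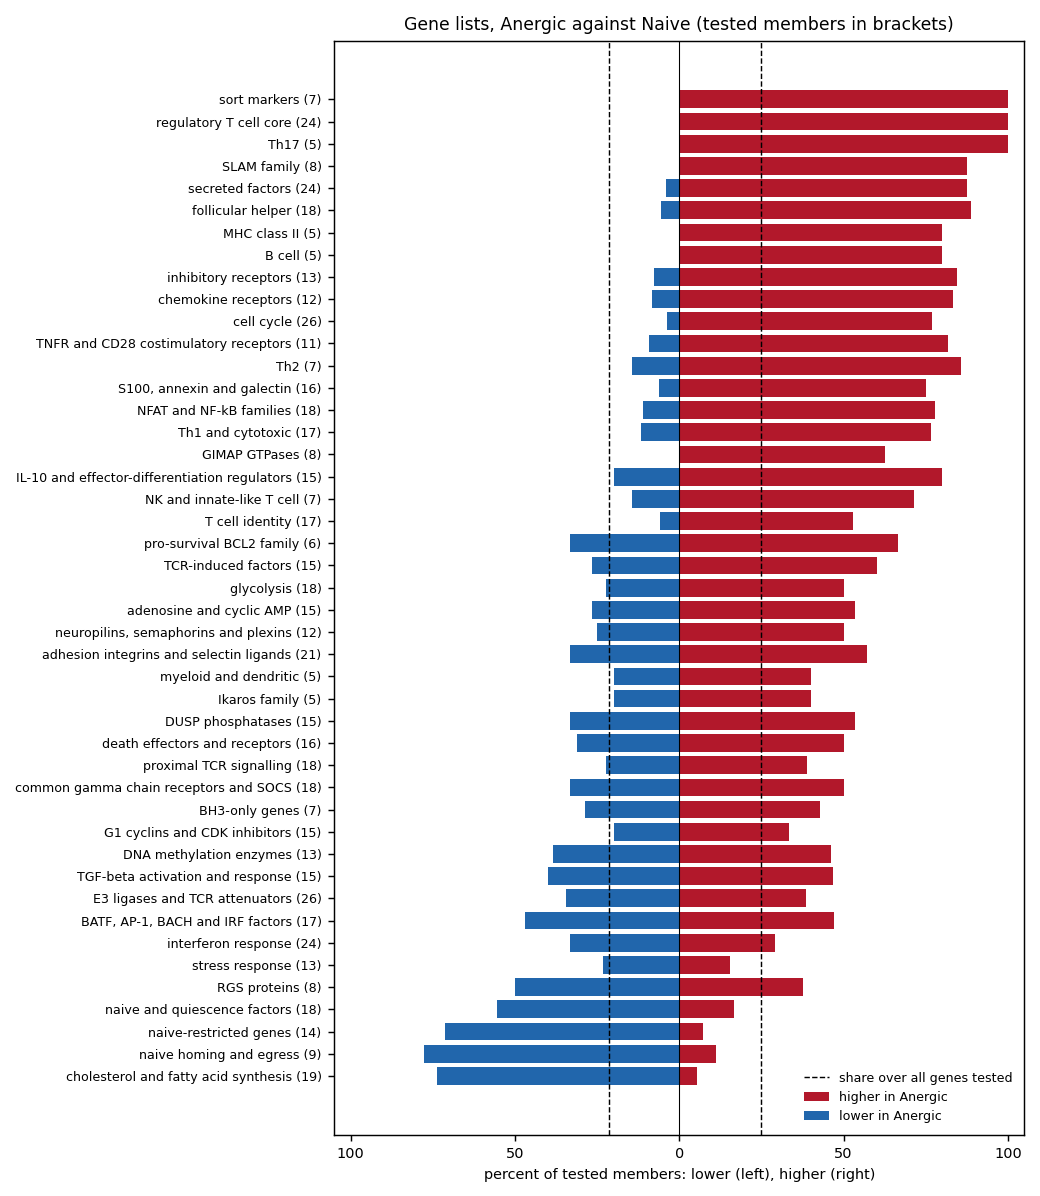
Percent of tested members higher (right, red) and lower (left, blue) in Anergic cells for gene lists with at least 5 tested members, whose number stands in brackets. Dashed lines mark the shares over all tested genes (25.0% higher and 21.3% lower); the Treg core, follicular helper and receptor lists pass far to the right and the cholesterol and homing lists to the left.

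Markers of other cells were checked beside these lists. The summed level of T cell identity genes was 7000 ± 244 CPM in Anergic and 5960 ± 374 in Naive libraries, with 9 of 17 higher, and Cd3e was 1.35-fold higher. B cell genes summed to 245 ± 36 against 217 ± 16.8 CPM (223 to 287 and 198 to 227), of which Ighm, which did not pass, gave the most, at 209 ± 33.9 and 214 ± 15.9. Of the other 9 B cell genes Cd22 was the most evident, at 29.2, 28.2 and 26.2 CPM in Anergic libraries with 2 counts in Naive. Of the 10 B cell genes 5 were tested, 4 higher (3 to 4 over all settings) and none lower, with a median log2 fold change of 1.53. Ms4a1 and Cd79a were among those with too few counts to be tested. MHC class II genes summed to 42.1 ± 4.12 against 16.9 ± 3.77 CPM, with 4 of 5 tested higher (2 to 5 over all settings) and none lower. Myeloid and dendritic genes summed to 37.1 ± 2.56 against 28 ± 0.764 CPM, with 2 of 5 tested higher and 1 lower. Plasma cell genes summed to 51.3 ± 2.15 against 33.4 ± 1.2 CPM, with 2 of 3 tested higher. The NK and innate-like T cell genes reached 30 ± 5.91 CPM together in Anergic and 5.83 ± 1.71 in Naive libraries (23.9 to 35.7 and 3.86 to 6.94), with 5 of 7 tested higher (2 to 5 over all settings, 2 with the Anergic and Naive libraries fitted alone). Zbtb16, the factor PLZF that defines innate-like T cells, gave most of it, at 17.9, 23.1 and 28.2 against 0.276, 0.868 and 0.304 CPM (log2FC 5.47 ± 0.333 SE, adjusted p = 1.57e-12; log2 fold change 6.24 without Naive replicate 2) and 99.9 ± 20.3 in Teff. CD8 genes were lower, 5.37 ± 0.436 against 15.4 ± 2.43 CPM. Erythroid genes were at or near 0 in both, with a sum of 0.413 ± 0.104 and 0.345 ± 0.494 CPM. Among these markers the B cell, MHC class II and NK and innate-like T cell genes were mostly higher. So were the helper, cytotoxic, chemokine receptor and follicular helper lists. The part of cells with such markers in those lists was not tested.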

How the data were processed

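RNA was measured in 12 libraries, of which the 3 Anergic and 3 Naive are compared here. The deposited values are unnormalised counts of reads per gene, 1 column per library. The authors made these counts, per the series design text, in a pipeline that includes HISAT2 for alignment and featureCounts for counting, besides Trimmomatic, SAMtools and edgeR, on GRCm38 (mm10), with deepTools 3.5.1.0.1 also named, per the submitters' processing notes. The library kit is stranded and for total RNA, per the labels' protocols; which annotation and which strand option the counting used is not given in the sources used here, and genes that overlap or lie antisense may share reads. Of 54532 entries 28629 had a count, 102 names stood on several entries and 53719 (98.5%) matched 1 gene of GENCODE M21, used for positions. No entry was blank. Between replicates the counts varied beyond sampling noise (chi-square over its degrees of freedom 2.24 to 23), and each library was kept as a sample of its own.

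Counts were fitted with edgeR 4.0.16 in R 4.3.3 (TMM scaling, filterByExpr, subset means over all 12 libraries, 8 residual degrees of freedom, quasi-likelihood F test, two-sided). Calls use a Benjamini-Hochberg adjusted p under 0.05, and the SE was taken as the log2 fold change over the root of F. Where a subset had 0 counts the fold is a bound computed from 3 counts over its libraries, and where it had 1 to 3 the fold is a ratio with an exact 95% interval, both for counting error only. The common biological coefficient of variation was 0.0764. On counts simulated for this comparison over 13393 genes, 79% of 100 genes changed 2-fold and 91% of 100 changed 4-fold were found, with 9 false calls. The changed genes were drawn from those with a mean of at least 1 CPM, and all other genes had the same mean in every subset. In the data 46.2% of genes differed, so these rates need not hold for the comparison itself.

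The members and gene lists were chosen with earlier results of these data known. Genes were named as follows: the sort markers with Batf, Bcl2l11 and Bcl2, the 10 highest and 10 lowest fold changes among called genes with at least 10 CPM and no overlap of libraries, the 5 with the most counts in each direction at 2-fold or more, and up to 3 higher and 3 lower members of each list by adjusted p; predicted, RIKEN, ribosomal, pseudogene, date-like and receptor segment names were left out of the ranked sets. Some genes that the rule names, and their places in the plots, are not reported here. Alternatives were DESeq2 1.42.0, limma 3.58.1 (voom), other scalings, filters and sample sets, the replicate block, each library left out, and removal of the abundant entries.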

Additional observations from a re-analysis of the deposited data

Results flagged for a closer look

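For 11 named genes the Anergic and the Teff subset stood on opposite sides of Naive, each by a called difference (edgeR's quasi-likelihood test, 3 libraries each). Both comparisons share the Naive libraries. A called difference between Anergic and Teff was also required, so that difference is given as a description with no test. Over all tested genes 132 (0.986% of 13393) met all these conditions, 44 with Anergic higher and Teff lower than Naive and 88 the reverse.

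In Anergic against Teff the log2 fold change was 3.16 for Ikzf4, the Ikaros factor EOS, 1.41 for Egr3 and 1.29 for Id3, all 3 higher than Naive in Anergic and lower in Teff. The other 8 were lower than Naive in Anergic and higher in Teff. Klrd1, a killer lectin receptor gene, differed by -4.41 and Slc2a3 by -1.66. Dusp5 differed by -1.48, Il7r by -1.36, Runx3, a factor of cytotoxic and Th1 cells, by -1.26 and Vim by -0.99. Tnfrsf25, the borderline call named above, differed by -0.82 and Ccnd3 by -0.68. In the libraries, Il7r was at 119.9, 138 and 175 CPM in Anergic, 299.7, 250.3 and 281 in Naive and 403, 348 and 361 in Teff. Dusp5 was at 25.3, 22.7 and 19.7, 49.8, 40.1 and 42.4 and 72.4, 59.5 and 57.5 CPM in the same order. Klrd1 is listed among NK and innate-like markers, and the part of such cells in its values was not tested.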

How the results depend on the processing

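The comparison was repeated under 15 alternatives. The higher genes (3342) numbered 2711 to 3559 and the lower (2851) 2412 to 3040, all within 1.5 times. Genes differing by 2-fold or more (2320) fell to 1399 with a minimum of 5 CPM in 3 libraries, which tests 10105 genes; elsewhere they numbered 2060 to 2783. Leaving out 1 library at a time gave 3067 to 3186 higher genes, 2497 to 2665 lower genes and 2296 to 2357 differing by 2-fold or more. With the replicate number as a block 3508 genes were higher, 3040 lower and 2336 differed by 2-fold or more. Same-numbered Anergic and Naive libraries deviated together weakly (correlations of 0.08, 0.08 and 0.12), and each correlated best with its own number. Those with different numbers had correlations of -0.07 to -0.02. As deviations were taken from the mean of each subset, correlations of both signs arise by construction. Whether an equal number stands for a shared preparation is not in the labels. The main fit, and each p-value printed from it, leaves the number out. Scaling by total counts shifted the median log2 fold change by -0.05 and gave 2878 higher and 2998 lower genes, 49% higher against 54%.

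Of 217 named genes 209 stayed on their side of the threshold under all alternatives that gave a value, and none reversed. Of 3243 pairs of a gene and an alternative 28 lost the call, in Bid, Elf4, Gadd45a, Nfkbiz, Pax5, Pcna, Tnfrsf25 and Zeb1. Among 15 genes named after their values were seen, Cblb gained the call in 1 setting, and 3 that did not pass changed sign, also without passing: with 1 library left out Fos ran from -0.31 to 0.12 (above 0 without Naive replicate 3), Ighm from -0.17 to 0.04 (0 or above without Anergic replicate 2 or 3 or Naive replicate 2) and Itch from -0.07 to 0.02 (0 or above without Anergic or Naive replicate 1). Lower members numbered 0 to 2 for secreted factors and 0 to 3 for cell cycle genes. Low counts limit the folds of genes with few Naive counts, which depend on the floor of 3 counts: without 1 Naive library the bounds of 13 such genes fell by 1.43 to 1.58 times by construction. Settings for genes named later, single-library bounds and lists without sort markers were chosen after seeing the data.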

Other observations

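Some gene groups outside the lists, picked by their names after the files were seen, had median log2 fold changes of -0.09 to 0.35. A median near 0 can hide differences in both directions. Over all tested genes 25.0% were higher and 21.3% lower. Of 174 solute carrier genes 55 were higher and 38 lower in Anergic cells, with a median log2 fold change of 0.07 and fitted values from -3.37 to 9.22. Of 37 proteasome subunit genes 7 were higher and 4 lower. Of 78 mitochondrial ribosomal protein genes 5 were higher and 11 lower, unlike their cytosolic counterparts. Of 11 messengers encoded by mitochondrial DNA 3 were higher and none lower, with a median of 0.23. Among receptor segments, 5 of 21 beta variable segments were higher and 1 lower, and 2 of 38 alpha variable segments were higher and 4 lower.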
